A study of Mus musculus with 6 samples.

Results

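The 9 genes described here are the chemokine genes Cxcl1, Cxcl2, Cxcl5, Cxcl10, Cxcl12, Cxcl14, Cxcl16 and Ccl2, together with Csf1, the gene of macrophage colony-stimulating factor. They were picked by name out of 19938 genes read by a probe set with a single gene symbol. Where a gene has several such probe sets, the one that stands for it is chosen by its mean log2 signal over the 6 arrays. Each of the 9 had exactly 1, so the measured values decided nothing in that step, but the genes themselves were listed with results of these data already known. RNA came from bulk populations of the mouse embryonic stem (ES) cell line HM1 and was read on 6 Affymetrix whole-transcript arrays. In the Prmt6 overexpression group (3 arrays) the cells had received mouse Prmt6, a nuclear arginine methyltransferase of histones, in the pCAGIP.puro vector, and in the control group (3 arrays) the same vector without an insert. Cells of both groups grew in medium with 15% serum and 1000 U/ml of LIF, a cytokine that keeps mouse ES cells undifferentiated. After lipofection they spent 3 days in puromycin at 1 ug/ml. The comparison asked how expression differs when extra Prmt6 is supplied.

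Chemokines are small secreted proteins that guide migrating cells along a gradient by binding G protein-coupled receptors. Their names follow the spacing of the leading cysteines, CXC or CC, and many of their genes lie in tight clusters. Inflammatory members such as Cxcl1, Cxcl2, Cxcl5, Cxcl10 and Ccl2 are induced by cytokines in stromal cells, epithelia and leukocytes, often through the transcription factor NF-kB. Homeostatic members such as Cxcl12 and Cxcl14 are made steadily in many tissues. Csf1 is not a chemokine but is secreted by many of the same stromal cells, and it keeps macrophages alive through its receptor Csf1r.

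With the Prmt6 plasmid, Csf1 rose 3.85-fold, Cxcl16 2.46-fold, Cxcl10 2.20-fold and Cxcl12 1.39-fold, and 0 of the 9 genes fell (limma, n = 3 arrays per group). Ccl2 was 1.20-fold higher without passing the threshold, an adjusted p of 0.05. Cxcl1, Cxcl2 and Cxcl5, the ligands of the neutrophil receptor Cxcr2, and the homeostatic Cxcl14 did not pass and lay within 0.07 of 0 on the log2 scale. The 4 genes that rose stand beside a background of 7.05% of all genes that rose, 3.25% that fell and 10.3% called in either direction. In 5 of the 9 genes the 3 overexpression arrays were all above the 3 control arrays, as they were in 17.0% of all genes, while 12.7% were all below and 29.7% were apart in either direction. Because the genes were chosen with results known, these counts describe them and are no test of enrichment. In bulk RNA, more cells expressing a gene and more transcript per cell cannot be told apart.

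The plasmid gene Prmt6 read 7.32, 7.40 and 7.33 (log2 signal) on the overexpression arrays, against 6.84, 6.58 and 7.12 on the control arrays. Array medians lay between 5.54 and 5.59 in overexpression and between 5.60 and 5.62 in control. Arrays correlated at 0.986 to 0.990 within overexpression and at 0.991 to 0.992 within control. Pairs from different groups correlated at 0.98 to 0.987, a range that takes in the lowest overexpression pair. Of 12 ES cell markers, 0 rose (beside 7.05% of all genes), 3 fell (beside 3.25%) and 9 did not pass. The mean log2 level of the 12 was 10.27 to 10.29 in overexpression and 10.33 to 10.37 in control. The falls were those of Tdgf1 (-0.35), Nanog (-0.34) and Sox2 (-0.29), and each call was lost on leaving out any 1 control array (adjusted p from 0.0511 to 0.163). That of Tdgf1 was also lost for overexpression replicate 2 (0.0534), and that of Sox2 for any overexpression array (0.0549 to 0.105) and with median-centred arrays (0.111). Of 16 measured fibroblast markers, 10 rose (62.5%, beside 7.05% of all genes) and 0 fell (beside 3.25%). Their mean log2 level was 6.33 to 6.44 in overexpression and 5.80 to 5.87 in control. The rises were led by Vim (1.62 ± 0.067, log2 difference ± SE), Lox (1.51 ± 0.078), Col1a1 (1.34 ± 0.12) and Fn1 (0.99 ± 0.072). The other 6 markers, Col6a1, Lum, Postn, Prrx1, S100a4 and Thy1, did not pass, nor did they in any alternative. In counts added after the data were seen, 5 of the 16 rose without control replicate 1, where Col3a1 (adjusted p = 0.107), Col5a1 (0.117), Dcn (0.130), Pdgfrb (0.0567) and Twist2 (0.135) missed the threshold. The count was 6 without control replicate 3, 6 without overexpression replicate 3 and 7 to 9 without each of the other arrays. Fibroblasts make Csf1, Cxcl12 and several other members, and the part of this marker shift in the results was not tested. Of 7 endothelial markers 2 fell (28.6%, beside 3.25% of all genes), Tek (-0.70 ± 0.07) and Eng (-0.51 ± 0.089), and 0 rose (beside 7.05%). The mean log2 level of the 7 was 5.86 to 5.94 in overexpression and 6.13 to 6.18 in control.

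The DNA just upstream of the start site was read for 6 of the 9 genes (RefSeq, GRCm38.p6), while the upstream sequences of Cxcl5, Cxcl16 and Ccl2 were not analysed here. The windows of 4 genes are shown because they hold the NF-kB consensus, a 10-letter motif, in a pair of genes that rose and in a pair that did not pass. Each runs 5′ to 3′ over the 250 bases before the start, and capitals mark matches on either strand to the NF-kB consensus, to the interferon-stimulated response element (ISRE, written here as GAAA, any 2 letters and GAAA) or to the AP-1 site (TGANTCA).
Csf1 (chr3:107760470-107760719, minus strand): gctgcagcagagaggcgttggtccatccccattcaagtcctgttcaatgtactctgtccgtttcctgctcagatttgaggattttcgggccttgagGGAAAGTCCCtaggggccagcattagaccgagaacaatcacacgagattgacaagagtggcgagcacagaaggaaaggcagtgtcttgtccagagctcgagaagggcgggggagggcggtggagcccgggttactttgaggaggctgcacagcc
Cxcl10 (chr5:92348890-92349139, minus strand): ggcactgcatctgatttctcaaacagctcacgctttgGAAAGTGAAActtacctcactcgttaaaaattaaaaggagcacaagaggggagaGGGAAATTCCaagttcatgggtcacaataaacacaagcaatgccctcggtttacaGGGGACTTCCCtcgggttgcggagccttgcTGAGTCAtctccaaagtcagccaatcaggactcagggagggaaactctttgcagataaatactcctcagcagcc
Cxcl1 (chr5:90890995-90891244, plus strand): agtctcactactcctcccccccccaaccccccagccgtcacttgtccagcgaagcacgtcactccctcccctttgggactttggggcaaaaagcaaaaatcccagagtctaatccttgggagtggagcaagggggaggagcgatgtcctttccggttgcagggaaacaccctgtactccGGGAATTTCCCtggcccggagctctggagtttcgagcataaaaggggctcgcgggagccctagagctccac
Cxcl2 (chr5:90903649-90903898, plus strand): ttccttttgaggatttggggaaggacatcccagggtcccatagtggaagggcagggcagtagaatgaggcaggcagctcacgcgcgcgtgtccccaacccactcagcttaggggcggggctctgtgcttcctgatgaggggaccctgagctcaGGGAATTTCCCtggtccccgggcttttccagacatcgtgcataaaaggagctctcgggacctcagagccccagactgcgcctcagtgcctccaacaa
Csf1 held 1 NF-kB match, 145 to 154 bases before the start. Cxcl10 held an ISRE match at 204 to 213 bases, an NF-kB match at 150 to 159 bases, overlapping NF-kB matches at 94 to 104 bases and an AP-1 match at 68 to 74 bases. In Cxcl1 and Cxcl2 the NF-kB matches on both strands overlapped and formed the same run of letters, at 61 to 71 bases in Cxcl1 and 87 to 97 bases in Cxcl2. Cxcl12 had no match to any of these motifs and Cxcl14 had an ISRE match only. Of all 32851 windows of this length, 7.25% held an NF-kB match, 2.98% an ISRE match and 6.75% an AP-1 match, and 12.4% held the TATA-box letters TATAAA, which none of the 6 members had. A match is a description of the letters and not a binding site.

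Csf1, which drives survival and growth of the macrophage lineage, had log2 signals of 6.91, 6.69 and 6.47 on the overexpression arrays, against 5.02, 4.78 and 4.44 on the control arrays. The groups were separated by a gap that was more than the range within either of them. The mean was 6.69 ± 0.22 in overexpression and 4.75 ± 0.29 in control (SD, n = 3 each), a log2 difference of 1.94 ± 0.16 (SE, adjusted p = 0.000134). Only 34 of the 19938 genes had a larger rise. The control mean lay under the 30th percentile of all genes' control means (4.85), where signal may lie close to background. Csf1 lies on chromosome 3 (107741048 to 107760469, GRCm38.p6).

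Of 19 measured colony-stimulating factors, related haematopoietic cytokines and their receptors, 2 rose (10.5%, beside 7.05% of all genes) and 1 fell (5.26%, beside 3.25%). The median log2 difference was 0.0067, against 0 over all genes. Besides Csf1 itself, the riser was Csf1r, its tyrosine kinase receptor, at 5.16, 4.95 and 5.21 on the overexpression arrays, against 4.81, 4.70 and 4.74 on the control arrays. The groups did not overlap, and the difference was 0.36 ± 0.088 (adjusted p = 0.0370). That call held without overexpression replicate 2 (adjusted p = 0.0234) and ended without control replicate 1 (0.0845), 2 (0.125) or 3 (0.118) and without overexpression replicate 1 (0.0857) or 3 (0.0888), and with array weights (0.0548). Il34, the other ligand of Csf1r, was at -0.05 ± 0.13, with overlapping groups. The granulocyte and granulocyte-macrophage factors Csf3 and Csf2 did not pass, at -0.16 ± 0.071 and 0.07 ± 0.12. The fall was that of Kit, the stem cell factor receptor, which ES cells express (-0.39 ± 0.075, adjusted p = 0.0137), and the call was lost on leaving out control replicate 2 (0.0549), control replicate 3 (0.0643) or overexpression replicate 2 (0.0561).

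Leukocytes carry Csf1r and most chemokine receptors, so their markers were read in the same arrays. Of 15 measured leukocyte markers, 1 rose (6.67%, beside 7.05% of all genes) and 0 fell (beside 3.25%). The mean log2 level of the list was 4.84 to 4.93 in overexpression and 4.83 to 4.91 in control. Only 5 of the 15 had a mean signal that reached the 30th percentile of all genes. The others may lie close to background, where a change could be missed. The riser was Cd68, a lysosomal glycoprotein used as a macrophage marker but found in other cells too (0.39 ± 0.067, adjusted p = 0.00761). The pan-leukocyte Ptprc was at -0.01 ± 0.098, the macrophage marker Adgre1 at -0.15 ± 0.11, the myeloid factor Spi1 at 0.0067 ± 0.11 and the T cell marker Cd3e at -0.04 ± 0.07, all without passing. Detection calls were not used, so no marker could be called absent.

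**Figure D1:**
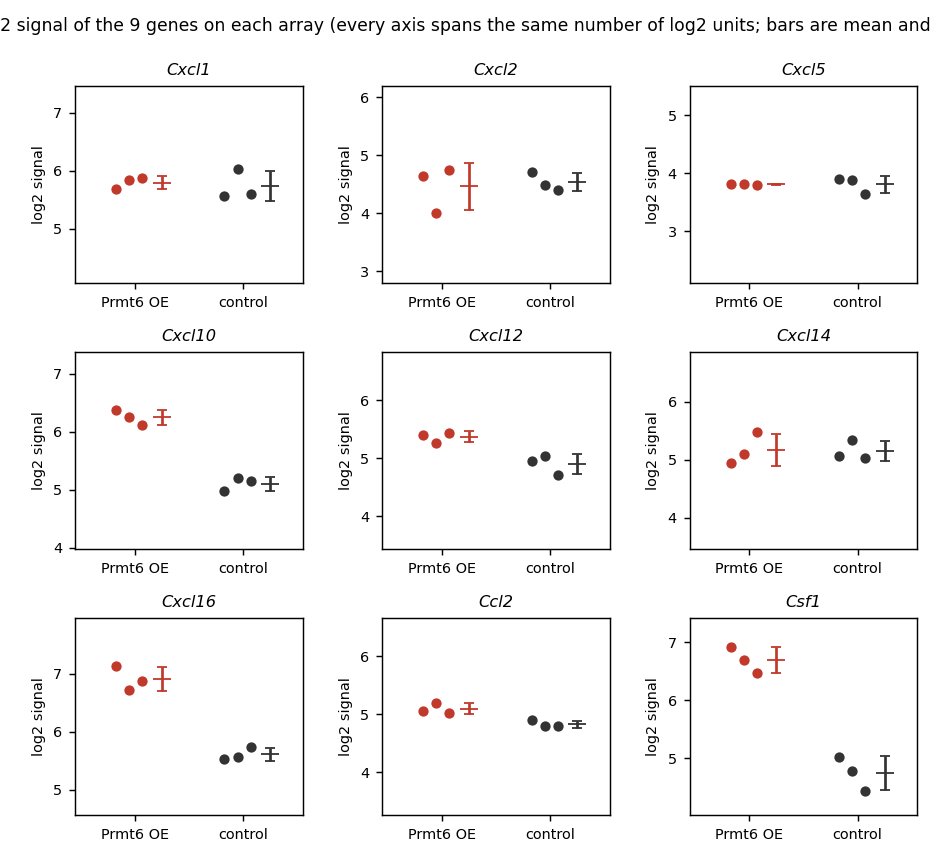
Log2 signal of the 9 genes on each array, with Prmt6 overexpression left of control in every panel; points are arrays, bars are means with SD (n = 3), and each axis spans the same number of log2 units. Csf1, Cxcl16, Cxcl10, Cxcl12 and Ccl2 had no overlap between the groups, with Csf1 means of 6.69 and 4.75 the farthest apart, and the other panels overlap.

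Cxcl16 is made as a membrane-bound chemokine on a mucin stalk, acts as an adhesion molecule and scavenger receptor, and is released as the soluble ligand of Cxcr6. It read 7.13, 6.72 and 6.88 on the overexpression arrays, against 5.53, 5.56 and 5.74 on the control arrays. Every overexpression array was above every control array. The means were 6.91 ± 0.21 in overexpression and 5.61 ± 0.11 in control (SD, n = 3 each), and the log2 difference was 1.30 ± 0.11 (adjusted p = 0.000204). With each array left out in turn it stayed between 1.19 and 1.395 and kept its call. Cxcr6 was at 0.097 ± 0.19, with a 95% interval of -0.34 to 0.53, and did not pass.

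Cxcl16 and Csf1 are both shed from the cell surface by metalloproteases, and Cxcl10 and Cxcl12 are trimmed by others. Of 13 such proteases and their regulators, 5 rose (38.5%, beside 7.05% of all genes), 1 fell (7.69%, beside 3.25%) and 7 did not pass. The median log2 difference was 0.15, against 0 over all genes. Adam10, the constitutive sheddase of Cxcl16, rose (0.55 ± 0.074, adjusted p = 0.00210), while Adam17, the inducible sheddase, was at -0.17 ± 0.086 (0.274). Mmp14, a membrane-anchored matrix protease, had the largest rise of the list (1.17 ± 0.084), and Adam9 (0.78 ± 0.097), the lysosomal protease Ctsl (0.62 ± 0.067) and the gelatinase Mmp2 (0.53 ± 0.077) rose as well. Dpp4, the dipeptidyl peptidase that clips the amino end of Cxcl12 and Cxcl10, fell (-0.50 ± 0.095, adjusted p = 0.0115).

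Cxcl10 is induced by interferons and draws activated T cells through Cxcr3. On the overexpression arrays it read 6.38, 6.25 and 6.11, against 4.97, 5.20 and 5.15 on the control arrays. The lowest overexpression array was well above the highest control array, and the means were 6.25 ± 0.14 in overexpression and 5.11 ± 0.12 in control (SD, n = 3 each). The log2 difference was 1.14 ± 0.097 (adjusted p = 0.000167) and stayed between 1.07 and 1.21 with each array left out. Cxcr3 was at -0.11 ± 0.14 and did not pass.

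Cxcl9, Cxcl10 and Cxcl11, the Cxcr3 ligands, lie side by side within 42.0 kb of chromosome 5, with Cxcl10 at 92346638 to 92348889. Cxcl9 read 4.88, 4.87 and 4.71 on the overexpression arrays, against 4.65, 4.86 and 4.91 on the control arrays, a difference of 0.013 ± 0.093 with overlapping groups. Cxcl11, annotated as a transcribed pseudogene in this reference, read 4.69, 5.07 and 5.09 on the overexpression arrays, against 4.42, 4.65 and 4.42 on the control arrays. Its groups did not overlap, but at 0.45 ± 0.12 it missed the threshold (adjusted p = 0.0528), and it passed without overexpression replicate 1 (0.0140), with array weights (0.0140), with arrays centred on their medians (0.0227), under quantile normalization (0.0253) and when the prior was trended and robust (0.0290). Cxcl10 and Cxcl11 lie inside the annotated span of Art3, which was at -0.063 ± 0.14 without passing.

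Of 23 measured genes of the interferon response, 3 rose (13.0%, beside 7.05% of all genes), 1 fell (4.35%, beside 3.25%) and 19 did not pass, with a median log2 difference of 0.047. The cytosolic RNA sensor Ddx58 rose (0.73 ± 0.094, adjusted p = 0.00170), as did the interferon gamma receptor chains Ifngr2 (0.51 ± 0.085) and Ifngr1 (0.31 ± 0.08), while the transcription factor Irf1 fell (-0.41 ± 0.076, adjusted p = 0.0107). The Ifngr1 call ended with any 1 array left out (adjusted p from 0.0603 to 0.160), and that of Irf1 without control replicate 3 (0.0529) and when its probe sets were averaged (0.103). The widely used response genes Ifit1 (0.08 ± 0.097), Rsad2 (0.10 ± 0.074), Usp18 (0.047 ± 0.11) and Irf7 (0.043 ± 0.16) did not pass, nor did Ifnb1 (-0.32 ± 0.17) or Ifng (-0.15 ± 0.077).

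Cxcl12, the ligand of Cxcr4 and of the scavenging receptor Ackr3, positions stem and progenitor cells in many tissues. It read 5.41, 5.26 and 5.44 on the overexpression arrays, against 4.95, 5.04 and 4.71 on the control arrays. The groups did not overlap, and the means were 5.37 ± 0.096 in overexpression and 4.90 ± 0.17 in control (SD, n = 3 each). The log2 difference of 0.47 ± 0.10 passed (adjusted p = 0.0217), and 801 genes had a larger rise. The call ended without overexpression replicate 1 (adjusted p = 0.0645) or 3 (0.0597) and without control replicate 1 (0.0600) or 3 (0.0667), and it held without replicate 2 of either group. Cxcr4 (-0.13 ± 0.094) and Ackr3 (-0.013 ± 0.11) did not pass, with 95% intervals of -0.34 to 0.088 and -0.27 to 0.24.

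Cxcl14, a homeostatic chemokine of epithelia, read 4.94, 5.09 and 5.48 on the overexpression arrays, against 5.07, 5.34 and 5.03 on the control arrays. Overexpression replicate 3 was the highest array and replicate 1 the lowest, so the groups overlapped fully. The difference was 0.023 ± 0.14, with a 95% interval of -0.31 to 0.35, and its sign changed without overexpression replicate 3 (-0.13), without control replicate 1 (-0.015) or 3 (-0.035) and with array weights (-0.0041).

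**Figure D2:**
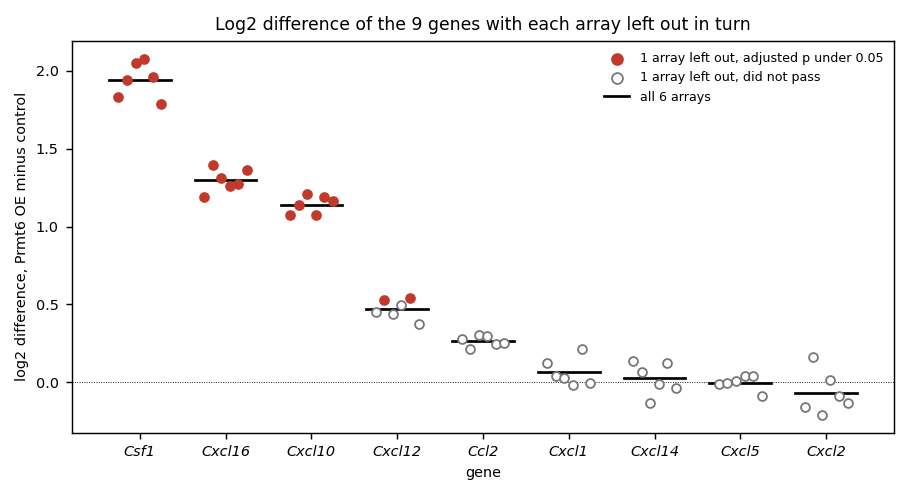
Log2 difference (Prmt6 overexpression minus control) of the 9 genes with each of the 6 arrays left out in turn (points, filled where the adjusted p was under 0.05) and with all arrays (lines). Csf1 stayed between 1.79 and 2.08, Cxcl16 and Cxcl10 kept their calls in every fit, Cxcl12 kept its call in 2 of 6 fits, and Cxcl1, Cxcl2, Cxcl5 and Cxcl14 lay on both sides of 0.

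Ccl2, the monocyte-attracting ligand of Ccr2, read 5.06, 5.20 and 5.02 on the overexpression arrays, against 4.90, 4.79 and 4.80 on the control arrays. The groups did not overlap, but the lowest overexpression array was only just above the highest control array. The means were 5.09 ± 0.095 in overexpression and 4.83 ± 0.061 in control (SD, n = 3 each), and the log2 difference of 0.26 ± 0.079 missed the threshold (adjusted p = 0.0741). It passed with arrays centred on their medians (0.0473), under quantile normalization (0.0337), with array weights (0.0275) and with genes under the 30th percentile of signal left out (0.0336). Ccr2 was at 0.017 ± 0.11, with overlapping groups.

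In genome order, 6 CC chemokine genes within 144.2 kb of chromosome 11 are Ccl2, Ccl7, Ccl11, Ccl12, Ccl8 and Ccl1. Of these, 1 rose (beside 7.05% of all genes) and 1 fell (beside 3.25%). Ccl2 is the first of the 6. Ccl7, its neighbour and a further monocyte attractant, read 5.81, 5.85 and 5.60 on the overexpression arrays, against 5.25, 5.28 and 5.00 on the control arrays. All overexpression arrays were higher, and the difference of 0.58 ± 0.10 passed (adjusted p = 0.00949). Ccl11 (-0.28 ± 0.12), Ccl12 (0.0067 ± 0.12) and Ccl8 (0.28 ± 0.16) did not pass. Ccl1, at the far end, read 5.05, 5.04 and 5.09 on the overexpression arrays, against 5.39, 5.40 and 5.35 on the control arrays. The spread within each group was small, and the fall of 0.32 on the log2 scale passed (adjusted p = 0.0181). The call was lost on leaving out control replicate 1 (0.0806), 2 (0.0778) or 3 (0.0605), or overexpression replicate 2 (0.0642).

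Cxcl1, Cxcl2 and Cxcl5 carry the ELR motif before the cysteines and attract neutrophils through Cxcr2. Cxcl1 read 5.68, 5.85 and 5.87 on the overexpression arrays, against 5.57, 6.04 and 5.60 on the control arrays. The highest value belonged to control replicate 2, and the difference was 0.063 ± 0.13, with a 95% interval of -0.23 to 0.36. Cxcl2 read 4.64, 4.0 and 4.74 on the overexpression arrays, against 4.70, 4.49 and 4.40 on the control arrays. Overexpression replicate 2 was the lowest of the 6, and the difference was -0.07 ± 0.18 with it and 0.16 without it, with an interval of -0.49 to 0.35 over all arrays. Cxcl5 read 3.82, 3.81 and 3.79 on the overexpression arrays, against 3.90, 3.89 and 3.64 on the control arrays. Its difference was -0.0033 ± 0.087 and turned positive with arrays centred on medians (0.043) and under quantile normalization (0.06), without passing in any fit. Their receptors Cxcr2 (-0.067 ± 0.11) and Cxcr1 (-0.097 ± 0.11) did not pass either.

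These ELR genes belong to a block of 7 CXC genes within 146.6 kb of chromosome 5 that holds no other annotated protein-coding gene, in the order Cxcl5, Ppbp, Pf4, Cxcl3, Cxcl15, Cxcl1 and Cxcl2. Within that block 1 gene rose (beside 7.05% of all genes) and 0 fell (beside 3.25%). Ppbp, the platelet basic protein that is cut into a further Cxcr2 ligand, read 5.83, 6.01 and 5.52 on the overexpression arrays, against 4.20, 4.39 and 3.40 on the control arrays. The groups were far apart, although control replicate 3 was low, and the difference was 1.79 ± 0.24 (3.46-fold, adjusted p = 0.00218). The control mean of 4.0 was also under the 30th percentile of control means. The rise was the largest among the chemokine ligands measured and kept its call with each array left out (adjusted p up to 0.0184). Its neighbours Pf4, Cxcl3 and Cxcl15 were at -0.02 ± 0.093, -0.06 ± 0.098 and 0.033 ± 0.19 without passing.

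Across the whole family, 36 of 39 listed chemokine ligands were measured, of which 5 rose (13.9%, beside 7.05% of all genes) and 2 fell (5.56%, beside 3.25%). The median log2 difference was 0.013, against 0 over all genes. The risers Cxcl10, Cxcl12 and Cxcl16 are among the 9 genes, which were chosen with results known. Of the 28 ligands outside the 9 genes, Ppbp and Ccl7 rose (7.14%, beside 7.05% of all genes). A further 2 fell (7.14%, beside 3.25%) and 24 did not pass. The larger fall was that of Ccl3, an inflammatory attractant of macrophages and T cells, at 4.95, 4.65 and 4.80 on the overexpression arrays, against 5.60, 5.77 and 5.49 on the control arrays. All overexpression arrays were lower, with a difference of -0.82 ± 0.10 (adjusted p = 0.00166). Ccl4, whose annotated span overlaps that of Ccl3 on chromosome 11, was at 0.073 ± 0.11 without passing, and overlapping genes may share signal.

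**Figure D3:**
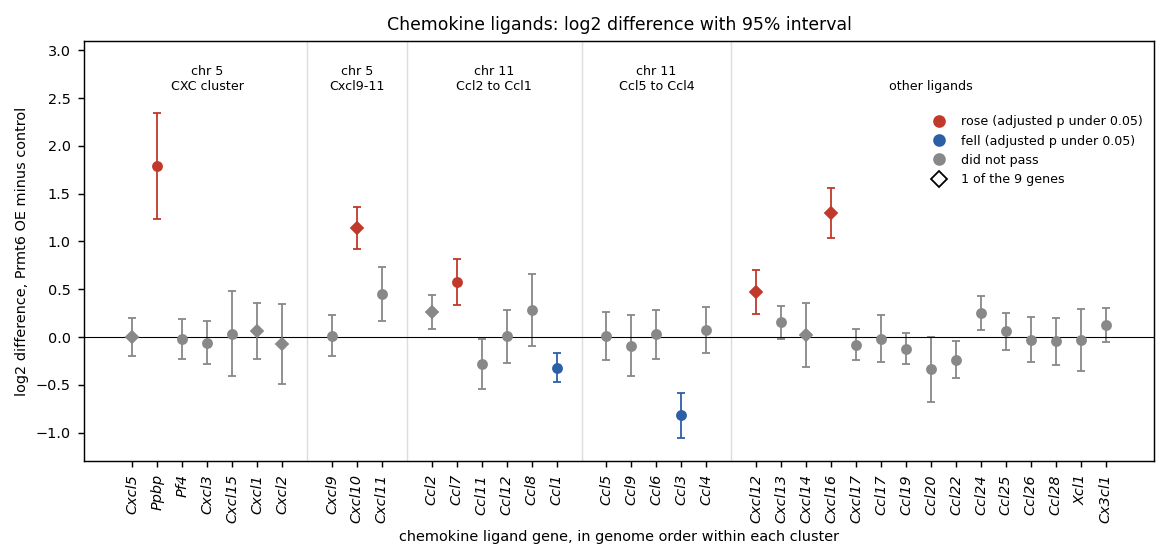
Log2 difference (Prmt6 overexpression minus control) of 36 chemokine ligands with 95% intervals, in genome order within the clusters on chromosomes 5 and 11; diamonds are among the 9 genes, and red and blue mark genes that rose or fell. Ppbp at 1.79 stands alone in its cluster, and Cxcl16 at 1.30 and Cxcl10 at 1.14 are the next largest.

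The receptor side showed no calls for the chemokines. Of 23 chemokine receptors measured, 0 rose and 0 fell by limma, beside 7.05% and 3.25% of all genes. An unadjusted p under 0.05 was found for 0 of them, beside 4889 of all 19938 genes. While 29.7% of all genes were apart in either direction, all 23 receptors had overlapping groups. Their differences ran from -0.19 to 0.097, with a median of -0.063, and their lowest adjusted p was 0.353. Intervals were wide for some of them, such as Cxcr6, so small changes lie within them. Only 8 of the 23 had a mean signal that reached the 30th percentile of all genes. The others may lie close to background, where a change could be missed.

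**Figure D4:**
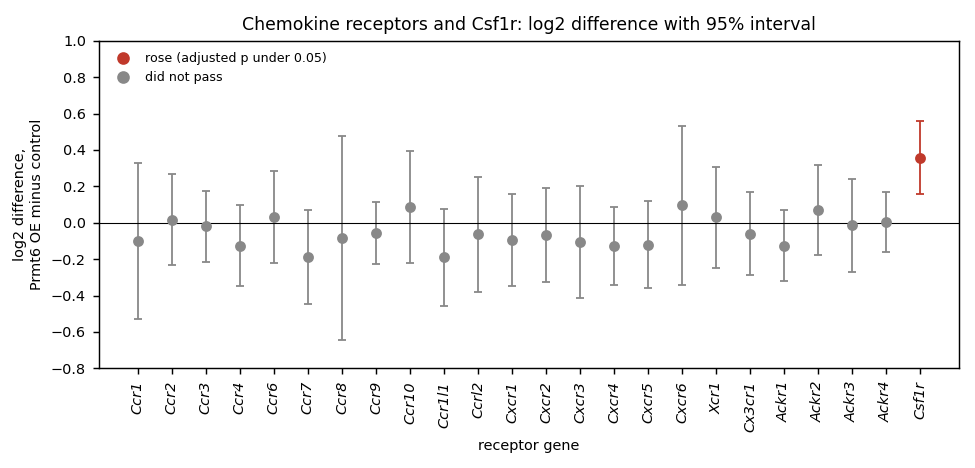
Log2 difference (Prmt6 overexpression minus control) of 23 chemokine receptors and of Csf1r with 95% intervals. All chemokine receptor intervals include 0, with point values from -0.19 to 0.097, and Csf1r is at 0.36.

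NF-kB genes were read because the transcription factor acts on several of the 9 genes. Of 17 measured subunits and regulators, 5 rose (29.4%, beside 7.05% of all genes) and 0 fell (beside 3.25%). The median log2 difference was 0.10, against 0 over all genes. In counts likewise added, 2 to 4 of the 17 rose with each array left out, beside 862 to 1232 of all 19938 genes. The count of 2 came without control replicate 1, control replicate 2 or overexpression replicate 3. Tnfaip3, a feedback inhibitor that NF-kB itself induces, read 6.22, 6.02 and 6.30 on the overexpression arrays, against 5.46, 5.30 and 5.11 on the control arrays. The groups did not overlap, and it rose by 0.89 ± 0.11 (adjusted p = 0.00151). The subunit gene Nfkb2 rose by 0.50 ± 0.074 (0.00358), and both kept their calls with each array left out. Nfkbia (0.47 ± 0.11) and Nfkbib (0.29 ± 0.071), inhibitors that hold NF-kB in the cytoplasm, and the subunit gene Rela (0.36 ± 0.086) also rose. The Nfkbia call was lost on leaving out control replicate 1 (adjusted p = 0.105) or 2 (0.0844), or overexpression replicate 1 (0.0774) or 3 (0.0714). The calls of Rela and Nfkbib held when overexpression replicate 1 was left out and were lost for each of the other arrays (0.0617 to 0.125 for Rela, 0.0858 to 0.140 for Nfkbib), and Nfkbib also missed under quantile normalization (0.0708).

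Of 22 measured inflammatory cytokines, receptors and adaptors, 0 rose and 0 fell by limma, beside 7.05% and 3.25% of all genes. An unadjusted p under 0.05 was found for 3, beside 4889 of all 19938 genes, and the median log2 difference was -0.022. The smallest p belonged to Myd88, the adaptor of Toll-like and interleukin-1 receptors (0.36 ± 0.10, adjusted p = 0.0605), which passed in 6 of 14 alternatives. These were the filters at the 30th percentile (adjusted p = 0.0265) and the median (0.0113), median-centred arrays (0.0346), quantile normalization (0.0420), the trended and robust prior (0.0153) and the fit without overexpression replicate 2 (0.0269). Ltb, the gene of lymphotoxin beta (0.27 ± 0.076, adjusted p = 0.0633), passed in 3 of 13, with the filter at the 30th percentile (0.0279), median centring (0.0286) and quantile normalization (0.0237). Tnf (-0.0067 ± 0.099), Il1b (-0.14 ± 0.075), Il1a (-0.27 ± 0.13) and Il6 (0.33 ± 0.17) did not pass.

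**Figure D5:**
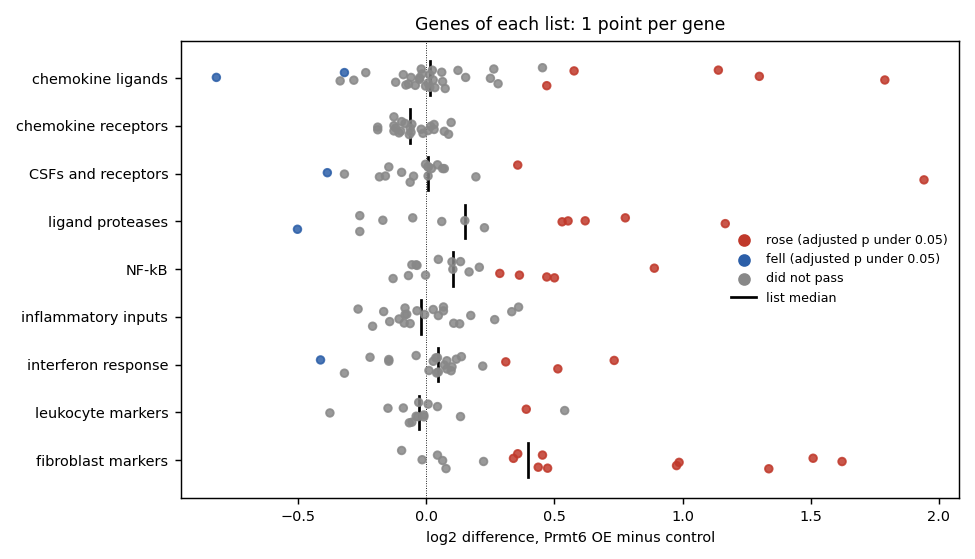
Log2 difference (Prmt6 overexpression minus control) of every measured gene of 9 lists, with 1 point per gene, coloured by call, and the list median as a line. The receptor and inflammatory lists have no coloured point, and the fibroblast markers have the highest median, 0.40.

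The gene whose profile over the 6 arrays lay closest to each risen member was sought among 18707 other genes, as the root mean square distance between log2 profiles set to 0 at their control mean. For Csf1 it was Timp2, an inhibitor of matrix metalloproteases, at a distance of 0.037, with 6.93, 6.76 and 6.55 on the overexpression arrays, against 5.07, 4.76 and 4.48 on the control arrays. For Cxcl10 it was Kctd10 (0.036), for Cxcl12 the forkhead factor Foxc1 (0.041) and for Cxcl16 the granzyme gene Gzme (0.059). Gzme read 5.14, 4.78 and 5.03 on the overexpression arrays, against 3.58, 3.70 and 3.89 on the control arrays, and it has close family copies whose probe sets may share signal. These genes were picked for their likeness, so their differences of 1.98 for Timp2, 1.16 for Kctd10, 0.50 for Foxc1 and 1.26 for Gzme are a description.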

How the data were processed

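The authors deposited log2 signals. The submitters' processing notes name robust multi-array average (RMA), a method that subtracts background, gives all arrays one distribution and combines the probes of a set. It largely removes any shift that most genes share. Its version, software and settings were not given in the sources used here. There were 35556 probe sets without missing values, and each sample was labelled from 5 ug of total RNA, per the labels' protocols.

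Genes were named from the platform annotation of 2016, which gave 1 symbol for 21789 probe sets, several for 1621 and none for 12146. Of the single-symbol probe sets, 21698 matched GRCm38.p6 by gene identifier. Prmt6 overexpression was compared with control in R 4.3.3 with the lmFit and eBayes functions of limma 3.58.1, two-sided and without covariates. Benjamini-Hochberg adjustment ran over all 19938 genes. Fold changes are overexpression over control, with SE from the fit. Nothing in the labels says that replicates were separate cultures. The p-values then cover only the spread between these samples, possibly a technical one. The number of arrays limits the precision.

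The 9 genes, the gene lists and the tests were chosen with earlier results of these data known. Named genes were the 9, other ligands that passed, the receptors of the 9, Il34, up to 4 passing genes per list with the largest change (or the smallest p where none passed) and, for each risen member, the gene with the nearest profile. Dpp4, Mmp2 and Nfkbib, and the listed genes given without a call, were chosen after their values were seen. Alternatives were a replicate block, each array left out, filters on dim genes at the 30th percentile and the median, median centring, quantile normalization, the mean of probe sets, a trended and robust prior, array weights and a threshold of 0.01. The procedure was tested on simulated data. Of log2 differences added there, it called 5.6% of those of 0.3, 47.2% of 0.5, 89.2% of 1 and 99.6% of 2. Small differences that did not pass can therefore be real changes that were missed. Plots used Python 3.11.15 and matplotlib 3.10.9.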

Additional observations from a re-analysis of the deposited data

How the results depend on the processing

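Csf1, Cxcl16 and Cxcl10 kept their direction and their call in every alternative that tested them, the stricter threshold of 0.01 included. Of the 9 genes, 4 rose in the comparison as reported, 3 to 4 with each array left out, and 1 when only genes at or above the median were kept, where 1 of the 9 was tested. Risen ligands numbered 8 under quantile normalization and 8 with array weights, 1 with genes under the median left out and 4 to 5 with each array left out. Fallen ligands numbered 1 with the replicate block, 1 at the threshold of 0.01, 0 with genes under the median left out and 1 to 2 with each array left out. Chemokine receptors stayed at 0 rises and 0 falls, although 0 of them were tested with genes under the median left out. Differences that did not pass changed sign for Cxcl5 with arrays centred on medians (0.043) and under quantile normalization (0.06), and for Cxcl14 with array weights (-0.0041). With each array left out they ran from -0.02 to 0.215 for Cxcl1, from -0.21 to 0.16 for Cxcl2, from -0.088 to 0.042 for Cxcl5 and from -0.13 to 0.14 for Cxcl14. Over all genes, rises numbered 765 at the threshold of 0.01 and 862 to 1232 with each array left out. Falls numbered 383 with the replicate block, 990 without genes under the 30th percentile, 1079 without genes under the median, 1115 when the prior was trended and robust, 1098 with array weights, 219 at the threshold of 0.01 and 280 to 763 with each array left out. Fewer genes were tested under the filters, and for the other shifts the cause was not tested. Over all genes, same-numbered arrays did not deviate together (correlations of -0.019, -0.0158 and -0.117). That cannot exclude that the numbers pair the samples. With the replicate block the SE of Csf1 went from 0.16 to 0.084, and that of Cxcl12 from 0.10 to 0.11. With the replicate block the calls of Cxcl12 (adjusted p = 0.0560), Csf1r (0.0614), Ccl1 (0.0708), Nfkbib (0.109), Ifngr1 (0.0950), Nanog (0.0615), Sox2 (0.116), Tdgf1 (0.0666), Col3a1 (0.0701), Col5a1 (0.0576) and Dcn (0.0849) ended and that of Cxcl11 began (0.0444). Signal may lie close to background for Cxcl2 and Cxcl5, whose means were under the 30th percentile of all genes in both groups, and for Csf1, Ccl2 and Ppbp in control alone.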

Other observations

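Of the chemokine ligands listed, Ccl21a, Ccl21b and Ccl27a had probe sets that name several genes each and stayed outside the comparison. The probe sets naming 7 genes with Ccl21a and Ccl21b read 5.01 ± 0.30 in overexpression and 5.07 ± 0.20 in control (log2, SD, n = 3 each). Those naming 5 genes with Ccl27a read 6.38 ± 0.055 in overexpression and 6.21 ± 0.14 in control, and a further one read 6.97 ± 0.079 in overexpression and 6.81 ± 0.093 in control. These values were not tested.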
